A study of Mus musculus with 2 samples.

Results

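The brain of TDAG51-/- dams (labelled TDAG51 KO) was compared with the brain of TDAG51-/-Tg2 dams (labelled TDAG51 KO Tg) on 1 of the 2 arrays of the study. Both samples lacked the endogenous TDAG51 gene, and TDAG51-/-Tg2 dams also carried a TDAG51 transgene. All dams were C57BL/6J females, 8 weeks old, and the brain was taken on postpartum day 0 (P0). The comparison asks which transcripts differ when TDAG51 is returned to the knockout brain, and the remaining array compared TDAG51-/- with TDAG51+/+ brain of the same strain, sex, age and day. The transgene was driven by the BAI1-AP4 promoter, which the study describes as brain-specific and active mainly in cerebral cortex and hippocampus, and the mice came from 1 transgenic line. How many dams each sample held, and whether the TDAG51-/- RNA of both arrays was the same extract, are not given in the sources used here.

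TDAG51-/- RNA was labelled with Cy3 and TDAG51-/-Tg2 RNA with Cy5, and the dyes were not swapped. A difference between the dyes and a difference between the genotypes therefore cannot be told apart for any single gene. With 1 array and no replicate sample, no test across animals was possible, and every number here describes this pair of samples. The members were the probes that were not controls, were not marked as outliers and carried the scanner's mark for a signal well above background in either channel, which left 33802 of 41174 probes and 17080 of 19474 named genes. Of these, 30668 were well above background in both channels, 2696 in TDAG51-/- alone and 438 in TDAG51-/-Tg2 alone. The mark uses the local background, so that the dimmest TDAG51-/- spot inside it had an intensity of 60.9 and the brightest spot outside it 67.2, and for TDAG51-/-Tg2 these were 80.5 and 98.0.

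TDAG51, listed as Phlda1, is a pleckstrin homology-like domain protein that was first described in T cells and is induced by several kinds of stress. Whole brain RNA is a mixture of regions, each with genes of its own. The cerebellum has the genes of granule and Purkinje cells, the hindbrain those of the Hox clusters, and the forebrain those of cortical, striatal and olfactory neurons. A difference between whole brain samples can come from more or fewer cells of a region or from more or less RNA in each cell, and these cannot be told apart here.

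The first 30 of the 60 bases of the probes on which the comparison turns are printed 5′ to 3′ in lower case, with the mm7 position of the whole probe as the scanner output gives it. Phlda1 is the targeted gene, Wnt8b and Trappc10 had the largest fold each way, Gabra6 and Drd1 stand for cerebellum and striatum, Prl for the pituitary, and Rgs5 has a pair of probes that differ.
Phlda1 (chr10:110970234-110970293, plus strand): atgactttatttatggacctttggaaggat
Wnt8b (chr19:44405142-44405201, plus strand): cgtgggcttcggagaggcaatttccaagca
Gabra6 (chr11:42263338-42263397, minus strand): tgcatatgtacatagctttagttatgctgc
Drd1 (chr13:53093438-53093497, minus strand): ctcaagaagaaatccaactttagatttctg
Trappc10 (chr10:77852370-77852429, minus strand): ggactttgagctgtcagacagtaatctgga
Prl (chr13:26430663-26430722, plus strand): tgctttatagttttcagtgcatgcttgggt
Rgs5, probe A_52_P136782 (chr1:169669366-169669425, plus strand): agagtaccgctgtgttatctggacattctc
Rgs5, probe A_51_P354934 (chr1:169671163-169671222, plus strand): gaatgaaggagaatcaaactgcatcttgct

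Phlda1 had an intensity of 44.1 in TDAG51-/- and 50.5 in TDAG51-/-Tg2 brain, and neither was well above background, so no fold is given. Whether the transgene transcript holds the stretch of this probe is not given in the sources used here, and the probe therefore checks nothing about the transgene. On the array with TDAG51+/+, the same probe had an intensity of 350 in TDAG51-/- and 7283 in TDAG51+/+. Another gene of the family, Phlda3 (3797 against 2445, log2 ratio 0.92), lay within 2-fold, and both Phlda2 probes were not above background in either channel. Of 88 probes above background within 5 megabases of Phlda1 on chromosome 10, 8 were past 2-fold upward and 4 downward, with log2 ratios from -1.29 to 1.56 and a median of 0.04. Over all 33802 probes above background, 4.73% were past 2-fold upward and 3.85% downward. Beta-actin (Actb), often used as a reference gene, had a log2 ratio of -0.62 on 1 probe (2154 against 4027), and its brighter probe was saturated in TDAG51-/-Tg2.

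The log2 ratio is that of TDAG51-/- over TDAG51-/-Tg2 after background correction with an offset of 50 and loess normalization, so it is not the plain quotient of the intensities that stand beside it as TDAG51-/- against TDAG51-/-Tg2. The offset pulls the ratios of dim probes toward 0. Over all 33802 probes, 1599 (4.73%) were at least 2-fold higher in TDAG51-/- than in TDAG51-/-Tg2 and 1303 (3.85%) at least 2-fold lower, so that 55.1% of the probes past 2-fold were higher. Median centring in place of loess gave 1459 higher and 1791 lower (44.9% higher), and no normalization gave 935 and 2943 (24.1% higher, or 53.7% relative to its own median). The median log2 ratio of all probes was -0.25 before normalization. At least 4-fold differences were found for 219 probes higher and 145 lower, and at least 8-fold differences for 42 and 33. For 219 probes printed at 5 or more spots, log2 ratios varied from spot to spot with a median SD of 0.06 and a highest SD of 0.35, which is a technical error alone. The probes at least 2-fold higher had a median intensity of 578 and 41.7% GC, those lower 755 and 45.0%, and all probes 631 and 41.7%. Each gene below is given by its brightest probe, and of 17080 genes 753 (4.41%) reached 2-fold higher levels in TDAG51-/- and 728 (4.26%) 2-fold lower levels. Gene counts below are read against these shares, and each list is counted over its members above background. These were 17 of 18 listed granule cell genes, 18 of 20 Purkinje cell genes, 26 of 39 Hox genes, 21 of 23 brainstem genes, 14 of 15 serotonin and noradrenaline genes and 8 of 10 dopamine genes. They were 25 of 28 striatal genes, all 27 cortical genes, 21 of 23 interneuron genes, 21 of 25 hypothalamic peptide genes, 11 of 14 pituitary genes and 11 of 15 blood genes.

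Genes of cerebellar granule cells were higher in TDAG51-/- brain than in TDAG51-/-Tg2 brain. Of 17 granule cell genes above background, 11 were at least 2-fold higher and 1 was at least 2-fold lower, with a median log2 ratio of 1.71 where that of all genes was 0.00. Gabra6, the GABA-A receptor subunit of granule cells, was 15.2-fold higher (59687 against 5853, log2 ratio 3.93). Cbln3 (2984 against 564, log2 ratio 2.60), a secreted synaptic organizer of granule cells, and Neurod1 (922 against 200.5, log2 ratio 2.32), a transcription factor of their differentiation, lay in the same direction. The brightest of these, Cbln1, which links granule cell axons to Purkinje cells, was at least 4.55-fold higher, since its TDAG51-/- spot was saturated. Zic2 (23608 against 7094, log2 ratio 2.26) and Pax6 (3422 against 1249, log2 ratio 1.71) are transcription factors of the granule lineage. Barhl2 (463 against 1287, log2 ratio -1.21) was the exception among the members past 2-fold, and its log2 ratio on the array with TDAG51+/+ was 0.05. Gabrd (log2 ratio 0.15), Kcnk1 (0.26) and Grm4 (0.48) lay within 2-fold.

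Purkinje cell genes were higher as well. Of 18 above background, 12 were at least 2-fold higher, none was at least 2-fold lower, and the median log2 ratio was 1.55. Among them were Ppp1r17 (39279 against 4719, log2 ratio 3.59), a phosphatase inhibitor of Purkinje cells, and Nrk (1230 against 144, log2 ratio 3.14), a kinase. Pcp2, a modulator of G-protein signalling in these cells, was at least 6.71-fold higher with a saturated TDAG51-/- spot. Slc1a6 (12833 against 3932, log2 ratio 2.11) encodes the Purkinje cell glutamate transporter, Pvalb (27798 against 9899, log2 ratio 2.05) a calcium-buffering protein and Car8 (20062 against 7097, log2 ratio 2.01) a protein that binds the IP3 receptor. Itpr1 (log2 ratio 0.36) and Pcp4 (-0.30) lay within 2-fold, so that not every gene of these cells differed.

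Hox genes, which mark position along the hindbrain and spinal cord, were split. Of 26 above background, 7 were at least 2-fold higher and none at least 2-fold lower, whereas the median log2 ratio was only 0.13 and below 0 without normalization. On the array with TDAG51+/+, 6 of 26 were at least 2-fold higher and the median was -0.15. The members past 2-fold were Hoxb5 (2024 against 243, log2 ratio 3.20), Hoxa5 (909.6 against 113, log2 ratio 3.07), Hoxb2 (520.2 against 87.3, log2 ratio 2.57), Hoxd4 (492 against 97.3, log2 ratio 2.28), Hoxa3 (459 against 115, log2 ratio 2.04), Hoxa2 (572 against 164, log2 ratio 1.94) and Hoxb3 (log2 ratio 1.08). All 7 belong to paralog groups 2 to 5, the groups of the hindbrain and neck level. The members with the lowest log2 ratios, Hoxb9 (-0.49), Hoxa4 (-0.48) and Hoxd9 (-0.42), lay within 2-fold. Of these, Hoxa4 also belongs to paralog groups 2 to 5, so that not every gene of these groups was higher.

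Genes of brainstem and monoamine neurons were higher in TDAG51-/- brain. Of 21 glycinergic and brainstem genes, 9 were at least 2-fold higher and 1 was at least 2-fold lower, with a median log2 ratio of 0.62. The higher genes included Slc6a5 (1244 against 142, log2 ratio 3.20), the glycine transporter of glycinergic terminals, Glra1 (722 against 144, log2 ratio 2.39), the adult glycine receptor subunit, and Calca (6529 against 1711, log2 ratio 2.21), which encodes calcitonin gene-related peptide. Isl1 (454 against 1741, log2 ratio -1.67), a LIM homeobox factor that motor neurons and striatal neurons both use, was lower.

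Of 14 genes of serotonin and noradrenaline neurons, 7 were at least 2-fold higher and none was at least 2-fold lower, with a median log2 ratio of 1.04. The serotonin transporter Slc6a4 (1047 against 146, log2 ratio 2.95), the noradrenaline transporter Slc6a2 (754 against 116, log2 ratio 2.70) and the serotonergic transcription factor Fev (1302 against 239, log2 ratio 2.60) were the furthest from 0. Tph2 (795 against 353, log2 ratio 1.36), the enzyme of serotonin synthesis in the brain, had a log2 ratio of 2.60 on the array with TDAG51+/+, and Fev had 1.08 there. Ddc (3080 against 1491, log2 ratio 1.30), which makes both serotonin and dopamine, had 0.51 on that array. The receptors Htr1a (log2 ratio -0.32) and Htr5b (-0.85) lay within 2-fold.

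All 8 dopamine neuron genes above background had log2 ratios above 0, and 3 were at least 2-fold higher, with a median of 0.74. Th (2820 against 691, log2 ratio 2.24), the rate-limiting enzyme of catecholamine synthesis, had a log2 ratio of 1.01 on the array with TDAG51+/+. Aldh1a1 (28626 against 11180, log2 ratio 1.93), a retinaldehyde dehydrogenase of midbrain dopamine neurons, had 0.61 on that array. The dopamine transporter Slc6a3 (12716 against 9867, log2 ratio 0.87) lay within 2-fold.

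Striatal genes were lower in TDAG51-/- brain than in TDAG51-/-Tg2 brain. Of 25 genes of medium spiny neurons above background, none was at least 2-fold higher and 15 were at least 2-fold lower, with a median log2 ratio of -1.13. Drd1 (790.5 against 5111, log2 ratio -2.42), the D1 dopamine receptor of the direct pathway, and Adora2a (9029 against 61406, log2 ratio -2.15), an adenosine receptor of the indirect pathway, were both lower. Ido1 (168 against 1643, log2 ratio -2.97), an enzyme of tryptophan breakdown, Gng7 (2777 against 17704, log2 ratio -2.26), a G-protein subunit, and Pdyn (891 against 3836, log2 ratio -1.84), the precursor of dynorphin, were lower too. The D2 receptor gene Drd2 (389 against 391, log2 ratio 0.20) and the striatal phosphoprotein gene Ppp1r1b (17719 against 31094, log2 ratio -0.20) lay within 2-fold.

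Of 27 genes of cortical and hippocampal projection neurons, none was at least 2-fold higher and 12 were at least 2-fold lower, with a median log2 ratio of -0.90. They included Mef2c (9033 against 58882, log2 ratio -2.09), a transcription factor of cortical neurons, and Tbr1 (1397 against 4739, log2 ratio -1.48), which specifies deep-layer projection neurons. Slc17a7 (5605 against 20896, log2 ratio -1.40) is the vesicular glutamate transporter of cortex and hippocampus, and Cck (10150 against 39615, log2 ratio -1.37) encodes cholecystokinin. Cux2 (5468 against 4561, log2 ratio 0.61) and Bhlhe22 (7136 against 5313, log2 ratio 0.81), which upper-layer neurons express, had log2 ratios above 0 and lay within 2-fold.

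Of 21 forebrain interneuron genes, 6 were at least 2-fold lower and none at least 2-fold higher, with a median log2 ratio of -0.71. Lhx8 (374 against 5062, log2 ratio -3.46), a factor of cholinergic and ventral forebrain neurons, Sp8 (2878 against 36405, log2 ratio -3.17), a factor of olfactory interneurons, and Dlx2 (349.9 against 1512, log2 ratio -1.83) were furthest from 0. Npy (74.0 against 210.2, log2 ratio -1.19), Nkx2-1 (342 against 939, log2 ratio -1.19) and Dlx1 (471 against 1215, log2 ratio -1.12) were also at least 2-fold lower. Reln (17533 against 13356, log2 ratio 0.94) and Calb2 (2150 against 1551, log2 ratio 0.71) had log2 ratios above 0 and lay within 2-fold. Olfactory bulb genes went both ways, with 4 of 13 at least 2-fold lower and 3 at least 2-fold higher and a median of -0.57. S100a5 (515 against 9562, log2 ratio -3.92), a calcium-binding protein, and Cdhr1 (1045 against 7005, log2 ratio -2.45), a cadherin of mitral cells, were lower. Gng13 (25864 against 6124, log2 ratio 2.60), a G-protein subunit of olfactory and other neurons, Lhx5 (2632 against 1072, log2 ratio 1.53) and Eomes (2337 against 1299, log2 ratio 1.09) were higher, and Lhx5 is also on the Purkinje cell list. None of 13 thalamic genes was past 2-fold in either direction, and their median log2 ratio was -0.02.

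**Figure D1:**
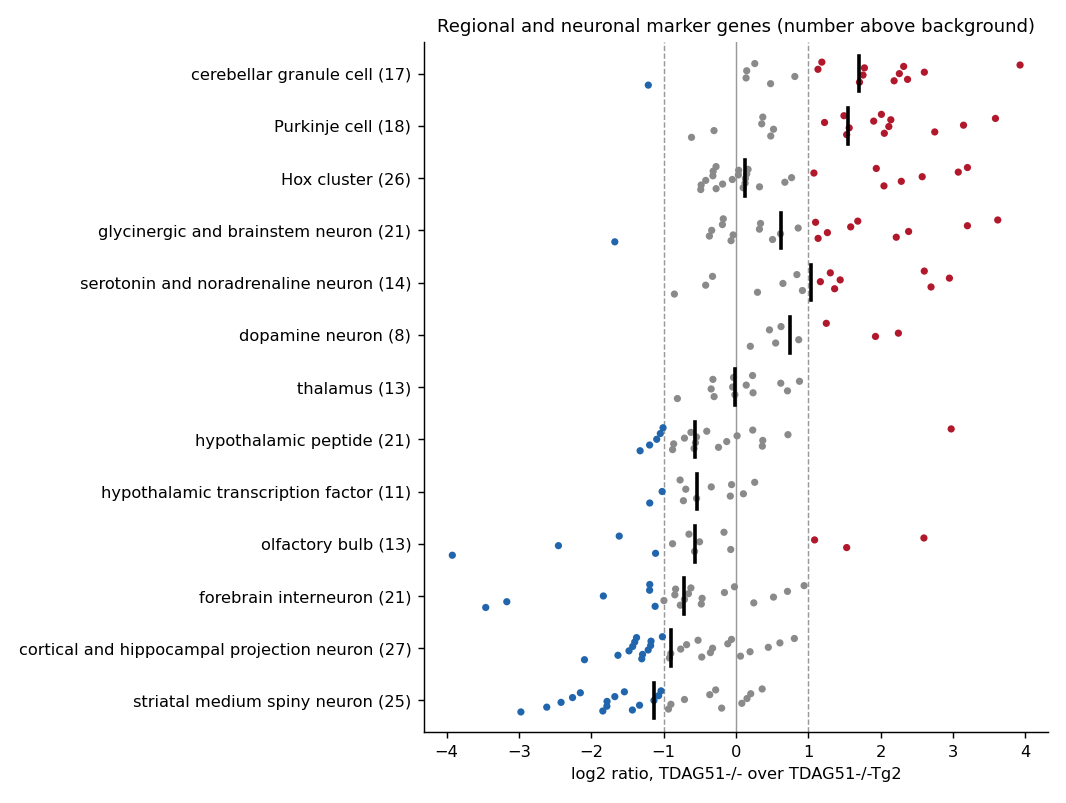
Log2 ratio of TDAG51-/- over TDAG51-/-Tg2 for each gene above background of 13 regional and neuronal lists, 1 point a gene, with the list median as a black bar, the dashed lines at 2-fold, and red and blue points at least 2-fold higher and lower. Granule and Purkinje cell medians lie at 1.71 and 1.55, and cortical and striatal medians at -0.90 and -1.13.

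The list medians on both arrays are given side by side, since the arrays share the TDAG51-/- genotype. TDAG51-/- RNA was in Cy3 on both arrays. Like medians are therefore not an independent repeat, and effects of the dye, the TDAG51-/- sample and the genotype cannot be told apart. On the array with TDAG51+/+, 4.52% of genes were at least 2-fold higher in TDAG51-/- and 5.08% at least 2-fold lower. Granule cell genes had a median log2 ratio of 1.71 here and 1.38 there, with 11 of 17 at least 2-fold higher on each array. Purkinje cell genes had 1.55 and 1.74, brainstem genes 0.62 and 0.67, and serotonin and noradrenaline genes 1.04 and 1.06. Striatal genes had -1.13 and -1.24, with 15 of 25 at least 2-fold lower on each, and cortical genes -0.90 and -0.86. Dopamine genes had 0.74 and 0.73, olfactory bulb genes -0.57 and -0.66, and hypothalamic peptide genes -0.56 and -0.37. Medians of other sign included those of Hox genes (0.13 and -0.15) and pituitary genes (-0.28 and 0.05). Blood genes had 1.22 here and -0.01 there, with 3 of 11 at least 2-fold higher and 3 lower on that array. Glucocorticoid-responsive genes (0.13 and -0.63), meninges and mural cell genes (-0.11 and 0.23) and maternal hormone genes (-0.12 and 0.13) also differed in sign. So did GABA-A receptor subunits (-0.12 and 0.08), acetylcholine receptors (-0.08 and 0.03) and Wnt ligands (0.004 and -0.12). Heat shock (0.03 and -0.005) and housekeeping genes (0.02 and -0.02) differed in sign as well. Interneuron genes had -0.71 and -0.92, with 6 of 21 at least 2-fold lower here and 10 of 21 there. The part of tissue composition or dissection in these values was not tested.

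Most hypothalamic genes had log2 ratios below 0. Of 21 hypothalamic peptide genes, 15 were below 0, 5 were at least 2-fold lower and 1 was at least 2-fold higher, with a median log2 ratio of -0.56. Pmch (3814 against 12690, log2 ratio -1.33), the precursor of melanin-concentrating hormone, and Hcrt (2355 against 6252, log2 ratio -1.10), that of orexin, are made in the lateral hypothalamus. Gal (935 against 2309, log2 ratio -1.05) encodes galanin and Ucn3 (67.9 against 173, log2 ratio -1.01) urocortin 3. Gnrh1 (1522 against 211, log2 ratio 2.97), the gonadotropin-releasing hormone gene, was the member that was higher, and its log2 ratio on the array with TDAG51+/+ was 2.38. Of 11 hypothalamic transcription factor genes, 2 were at least 2-fold lower, Nkx2-1 and Fezf1, and the median was -0.54, where the array with TDAG51+/+ gave -0.08.

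Among genes of the maternal hormone system, 4 of 20 were at least 2-fold lower and 1 was at least 2-fold higher, and the median log2 ratio of -0.12 turned positive when only probes above background in both channels, or all probes, were taken. Nr3c2 (499 against 211, log2 ratio 1.37), the mineralocorticoid receptor gene, was higher. The gene of the oestrogen receptor beta, Esr2, was at least 2.61-fold lower, and Prl, Gal and Ucn3 were the others past 2-fold. Oxytocin (Oxt, log2 ratio -0.40), vasopressin (Avp, -0.56) and the vasopressin receptor Avpr1a (0.72) lay within 2-fold. All 5 genes of the neuropeptide Y system above background except Npy itself, which was at least 2-fold lower, lay within 2-fold, and their median was -0.89. With offset 0, plain subtraction, no normalization, the scanner's ratio or the deposited ratio, 3 of the 5 were at least 2-fold lower.

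The pituitary hormone Prl was 18.7-fold lower in TDAG51-/- brain (223 against 5192, log2 ratio -4.22), and growth hormone Gh (109 against 1512, log2 ratio -3.40) was lower too. On the array with TDAG51+/+, Prl had intensities of 89.7 in TDAG51-/- and 80.2 in TDAG51+/+, and Gh 75.5 and 74.3. Both genes were thus bright in the TDAG51-/-Tg2 channel alone among the 4 channels of the arrays. The Prl value rests on 1 probe with 1 spot. By real-time PCR of brain on P0, the study reported PRL as upregulated in TDAG51-/- dams, whereas Prl was lower in TDAG51-/- on this array. The reason for this difference was not tested. Of the 9 other pituitary genes above background none was past 2-fold, with Pou1f1, the factor of prolactin and growth hormone cells, at -0.86, Pomc at -0.24, Lhb at -0.15, Tshb at 0.40 and Cga at 0.84.

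Within the receptor families, single genes stood out in both directions. Among 17 GABA-A receptor subunits, Gabra6 was the only one past 2-fold, and the median log2 ratio was -0.12. Among 18 ionotropic glutamate receptor subunits, 3 were higher and 4 were lower by 2-fold or more. The kainate receptor subunit Grik3 was at least 3.40-fold higher, and Gria4 (7763 against 4134, log2 ratio 1.28), an AMPA receptor subunit, was higher as well. Grik5 (3242 against 21994, log2 ratio -2.31), Grin2b (11481 against 47778, log2 ratio -1.44), Grin1 (5280 against 16556, log2 ratio -1.18) and Gria2 (12415 against 41746, log2 ratio -1.14) were lower. On the array with TDAG51+/+, Grik5 had -1.17 and Grin1 -0.64.

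Of 7 metabotropic glutamate receptors, 2 were at least 2-fold lower, Grm3 (18340 against 58276, log2 ratio -1.01) and Grm5, whose TDAG51-/-Tg2 spot was saturated. With the scanner's ratio or the deposited ratio, none of the 7 was past 2-fold. Of 13 serotonin receptors, Htr7 (462 against 119, log2 ratio 2.01) was higher and Htr6 (105 against 638, log2 ratio -2.24), which the striatum expresses strongly, lower. Of 13 dopamine and adrenergic receptors, Drd1, Adra1b (3330 against 11565, log2 ratio -1.41) and Adra2c (851 against 2091, log2 ratio -1.04) were lower and none was at least 2-fold higher. The muscarinic receptor Chrm3 (75.8 against 204, log2 ratio -1.08) was the only one of 14 acetylcholine receptor genes past 2-fold. Its TDAG51-/- intensity was close to that of the brightest spot not well above background, 67.2. With the scanner's ratio or the deposited ratio, 3 of the 14 were at least 2-fold higher and 1 was lower. For the same comparison, the study listed CHRM1 and CHRM3 as lower and CHRNA3 and CHRNB3 as higher in TDAG51-/- brain. In the opioid system, the peptide precursors Pdyn and Penk (10680 against 40678, log2 ratio -1.33) were lower, whereas the receptors Oprk1 (log2 ratio -0.58), Oprd1 (-0.32) and Oprm1 (-0.28) lay within 2-fold. Of 9 neurotrophin genes, Ntf3 was just past 2-fold higher (1.01), and Bdnf had -0.59.

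Activity-induced genes were lower in part. Of 23 immediate early genes, 7 were at least 2-fold lower and none at least 2-fold higher, with a median log2 ratio of -0.37. Nptx2 (1627 against 15263, log2 ratio -2.87), a secreted pentraxin of excitatory synapses, and Egr3 (2638 against 18472, log2 ratio -2.39) were furthest from 0. Arc (1967 against 7143, log2 ratio -1.55), Egr2 (1751 against 5511, log2 ratio -1.36), Homer1 (2558 against 7644, log2 ratio -1.24) and Egr1 (8811 against 30755, log2 ratio -1.24) followed, and Npas4 had a log2 ratio of -1.09 here and 0.82 on the array with TDAG51+/+. Fos (1277 against 1188, log2 ratio 0.34), the most widely used of these markers, lay within 2-fold.

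Glucocorticoid-responsive genes had a median log2 ratio of 0.13 here, which was below 0 without normalization, and -0.63 on the array with TDAG51+/+. Here, 1 of 16 was at least 2-fold lower, Fkbp5 (3429 against 9029, log2 ratio -1.03), a chaperone of the glucocorticoid receptor, and 6 were so on that array. The clock gene Per1 (698 against 741, log2 ratio 0.15) had intensities of 685 in TDAG51-/- and 4855 in TDAG51+/+ there, a log2 ratio of -2.58. Sgk1, a kinase induced by glucocorticoids, had a log2 ratio of 0.14 here and -1.74 there. The difference between the arrays was not tested. Of 20 circadian clock genes, 19 lay within 2-fold, and the median log2 ratio was -0.09.

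Few glial and vascular genes were past 2-fold. Of 23 myelin and oligodendrocyte genes, 2 were at least 2-fold higher, Hapln2 (1145 against 171, log2 ratio 2.90), a matrix link protein of nodes of Ranvier, and Gjb1 (4022 against 887, log2 ratio 2.41), the gap junction protein connexin 32, and the median log2 ratio was 0.41. Among 20 astrocyte genes the water channel Aqp4 (11590 against 6523, log2 ratio 1.28) was past 2-fold, and among 20 endothelial genes Eng (1679 against 528, log2 ratio 1.87), a receptor of the TGF-beta family. Of 18 choroid plexus genes, the transporter Slc4a5 (503 against 225, log2 ratio 1.34) and the channel subunit Kcne2 (6523 against 3670, log2 ratio 1.17) were higher, with a median of 0.32. The medians of myelin, endothelial and choroid plexus genes were below 0 without normalization, and that of astrocytes (0.21) also with median centring.

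Of 20 microglia genes, 4 were at least 2-fold lower, Cx3cr1 (700.3 against 2402, log2 ratio -1.52), the fractalkine receptor, Tmem119 (1733 against 5362, log2 ratio -1.33), C1qa (1150 against 3071, log2 ratio -1.15) and Siglech (145 against 359, log2 ratio -1.03). Their median log2 ratio was -0.24 here and -0.48 on the array with TDAG51+/+, where 1 of 20 was at least 2-fold lower. Microglial genes shared with other immune cells, Ptprc (369 against 423, log2 ratio 0.03) and Cd68 (2136 against 2124, log2 ratio 0.26), lay within 2-fold. Of 20 genes of meninges and mural cells, Rgs5, a marker of pericytes, was the only one past 2-fold, and it rests on 1 of its probes. Probe A_52_P136782 had intensities of 2238 against 19435 (log2 ratio -2.71) and probe A_51_P354934, whose sequence is also shown, 1564 against 2234 (-0.26). The former had a log2 ratio of 0.29 on the array with TDAG51+/+.

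Few genes of stress responses and of basic cell functions were past 2-fold. None of 22 endoplasmic reticulum stress genes, 46 oxidative phosphorylation genes and 14 housekeeping genes was past 2-fold, with medians of 0.11, -0.03 and 0.02. Each of these medians changed sign under at least 1 other scaling, and so did the median of 0.03 of 19 heat shock genes, of which Bag3 (8603 against 4159, log2 ratio 1.42), a co-chaperone, was higher. Of 25 interferon-induced genes, Oas2 (932 against 316, log2 ratio 1.70) and Stat2 (2762 against 1628, log2 ratio 1.01) were higher. Of 49 ribosomal protein genes, 44 had log2 ratios below 0, with a median of -0.35, and Rps15 (4893 against 14559, log2 ratio -1.13) was the only one at least 2-fold lower, whereas 7 were with median centring (median -0.79) and 22 with no normalization (median -0.97). The Y-linked gene Sry, a check of the labelled sex, had 84.5 against 147, the other 5 of 6 Y-linked genes were not above background, and Xist had intensities of 7620 against 6468.

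**Figure D2:**
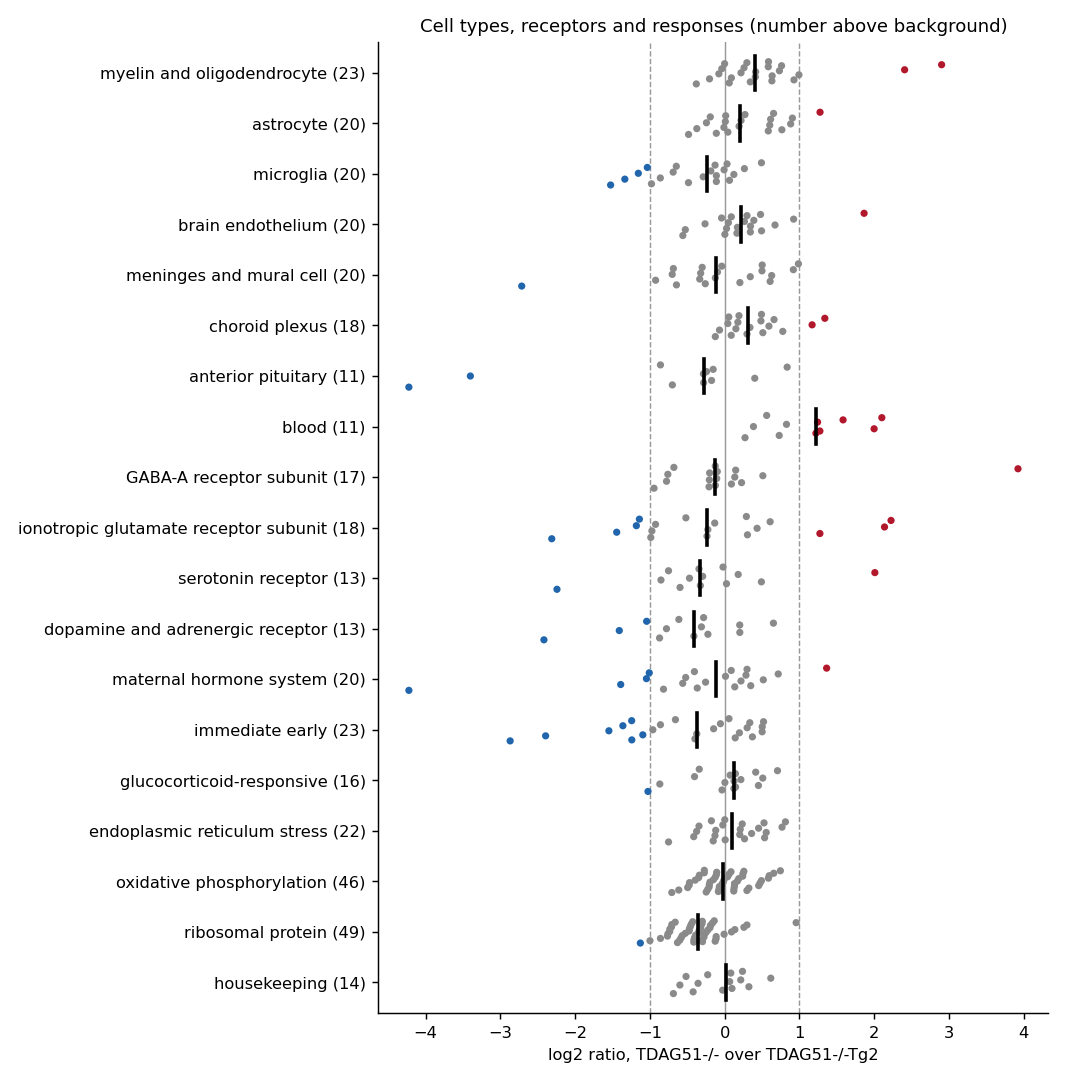
Log2 ratio of TDAG51-/- over TDAG51-/-Tg2 for each gene above background of 19 lists of cell types, receptors, hormones and responses, drawn as in the plot of regional lists. Prl and Gh lie at -4.22 and -3.40 on the pituitary list, and all 22 endoplasmic reticulum stress genes lie between the 2-fold lines.

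Families defined by gene symbol are read against the 4.41% of all genes that were at least 2-fold higher and the 4.26% lower. Of 34 voltage-gated potassium channel genes, 2 were higher (5.88%, near the share of all genes) and 6 lower (17.6%) by 2-fold or more. Among these were Kcng4 (1056 against 253, log2 ratio 2.20) and Kcns2 (632 against 2309, log2 ratio -1.61), both modifier subunits. Of 25 calcium channel genes, 3 were higher (12%) and 4 lower (16%). The auxiliary subunits Cacng7 (4339 against 700.1, log2 ratio 2.85) and Cacng3 (2462 against 10887, log2 ratio -1.78) were furthest from 0. None of 11 sodium channel genes was past 2-fold. Of 18 regulators of G-protein signalling, Rgs6 (3976 against 690.0, log2 ratio 2.74) and Rgs8 (27921 against 19931, log2 ratio 1.10) were higher, and 5 were lower, including Rgs9 (1425 against 5994, log2 ratio -1.78), the striatal member, and Rgs4, at least 3.1-fold lower with a saturated TDAG51-/-Tg2 spot.

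Among transcription factor families, 3 of 6 Iroquois genes were higher, Irx5 (1657 against 548, log2 ratio 1.79), Irx3 (436 against 196, log2 ratio 1.29) and Irx1 (974 against 477, log2 ratio 1.24), and none was at least 2-fold lower. Of 9 paired box genes, Pax3 (2263 against 254, log2 ratio 3.31) and Pax6 were higher and Pax1 at least 2.83-fold lower. LIM homeobox genes were split, with Lhx1, Lhx5 and Isl2 higher and Lhx8, Isl1 and Lhx2 lower among 11. Of 34 forkhead genes, 1 was higher (2.94%) and 3 were lower (8.82%) by 2-fold or more. Foxp1 and Foxp2 (571 against 1379, log2 ratio -1.02) were among the lower genes and Foxa2, a factor of midbrain dopamine neurons, was higher. None of 15 POU genes was past 2-fold. Of 15 Wnt ligands, Wnt8b, Wnt7a (10780 against 4982, log2 ratio 1.53) and Wnt3 (392 against 129.9, log2 ratio 1.68) were higher and Wnt10a (68.1 against 228, log2 ratio -1.34) and Wnt7b (379 against 1120, log2 ratio -1.30) lower.

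Of 22 Eph receptor and ephrin genes, Epha8 (2070 against 993, log2 ratio 1.28) and Ephb2 (1853 against 1078, log2 ratio 1.01) were higher and Epha5 (485 against 1696, log2 ratio -1.55) lower. Of 20 semaphorins, Sema3f (111 against 609, log2 ratio -2.06), Sema6c (2089 against 10656, log2 ratio -2.0) and Sema4a (1380 against 5479, log2 ratio -1.70) were lower, and on the array with TDAG51+/+ these had log2 ratios of -0.04, 1.65 and -1.22. Of 40 collagen genes, 3 were higher and 1 was lower. Of 18 SLC6 transporter genes, 3 were higher, Slc6a5 of glycine, Slc6a4 of serotonin and Slc6a2 of noradrenaline, and Slc6a18 (193 against 513, log2 ratio -1.13) was lower. Of 432 olfactory receptor genes above background, 12 were higher and 13 lower by 2-fold or more, shares of 2.78% and 3.01%.

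The named probes with the largest fold in each direction, 9 higher and 10 lower, differed in kind. Wnt8b, a Wnt ligand of the hippocampal and forebrain midline, was 48.9-fold higher in TDAG51-/- (11467 against 259.5, log2 ratio 5.61), and had 11004 in TDAG51-/- and 265 in TDAG51+/+ on the remaining array. A930001C03Rik, a transcript known by its clone name, was 31.2-fold higher, and Scnn1b, a subunit of the epithelial sodium channel, had intensities of 3396 against 114. Mreg, a protein of vesicle transport, had 13340 against 778, and the calcium-binding protein gene Cabp7 22628 against 1472. Of the others, Gabra6 is cerebellar, and Mib1, a ubiquitin ligase of Notch signalling, Cnpy1 and Chil5, a chitinase-like gene, had log2 ratios of 4.08, 3.86 and 3.66. The log2 ratios of these 9 probes were 3.66 to 5.61, and they were 1.91 to 5.49 on the array with TDAG51+/+.

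The 10 lower probes were all dim in every sample except TDAG51-/-Tg2. Trappc10, of a vesicle tethering complex, had 169.7 against 17051 (log2 ratio -6.30), and 160.2 in TDAG51-/- and 144 in TDAG51+/+ on the other array. Ccnf, an F-box cyclin, had a log2 ratio of -5.03 and -0.10, and Peli1, a ubiquitin ligase, -4.93 and -0.55. The rest were Fam53a, Gcn1, Wdr36, Tnfrsf10b, Prl, Katnal1 and Kif13a. Over the 10 probes, TDAG51-/- intensities were 68.1 to 278 here and 61.8 to 247 on the other array, TDAG51+/+ intensities 63.1 to 316, and TDAG51-/-Tg2 intensities 2200 to 17051. Their log2 ratios were -6.30 to -4.15 here and -0.55 to 0.47 on the array with TDAG51+/+. The probes on both sides, higher and lower, each stand on a single spot. Within the spots of the lower probes, pixels varied in Cy5 by 4.55% to 14.1% and in Cy3 by 12.2% to 28.2%. Within those of the 9 higher probes, these were 9.21% to 30.7% in Cy5 and 5.64% to 18.5% in Cy3. The median in Cy5 of probes with TDAG51-/-Tg2 intensities from 1000 to 20000 was 12.3%. Several of the higher probes, such as Wnt8b (259.5) and Scnn1b (114), were dimmer than this range in Cy5.

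**Figure D3:**
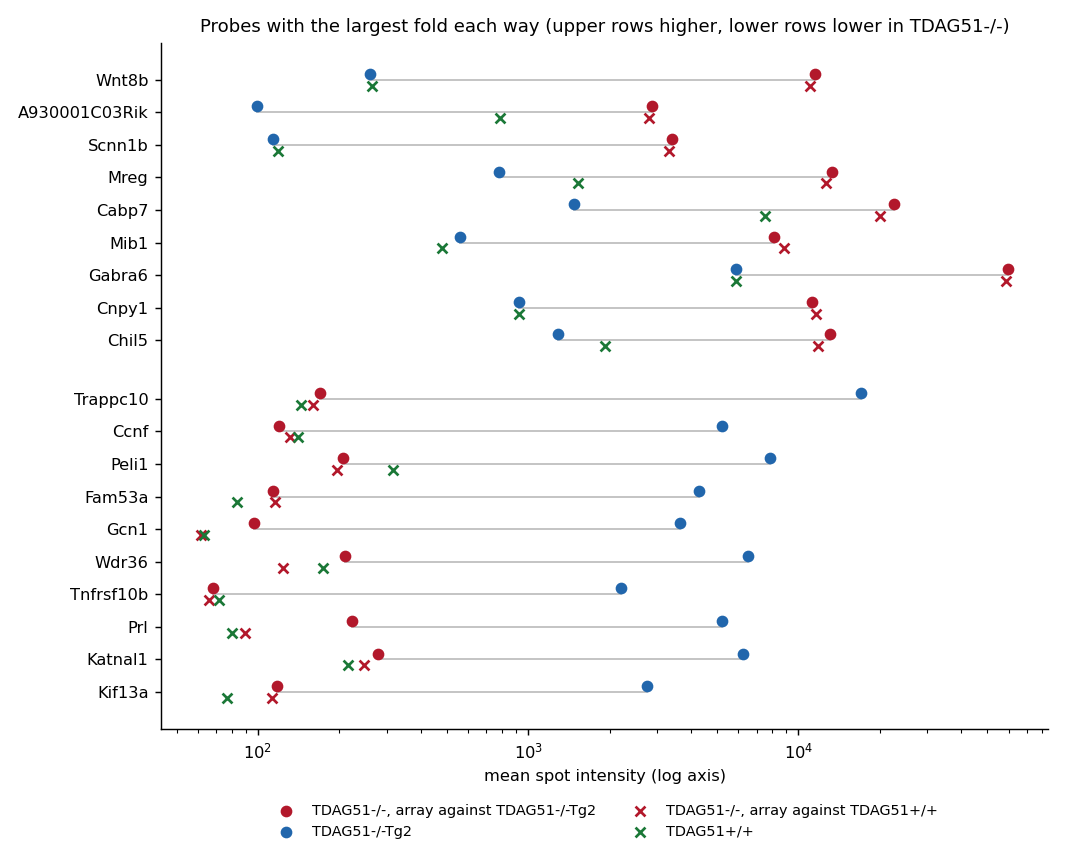
Mean spot intensity, on a log axis, of the probes with the largest fold in each direction (9 higher and 10 lower in TDAG51-/-), in both channels of this array (filled points) and of the array with TDAG51+/+ (crosses). The 10 lower probes lie between 2200 and 17051 in TDAG51-/-Tg2 and at or below 316 in the other 3 samples.

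Other probes of the same genes gave a further view. For 6 of the 10 genes with the lower probes another probe was above background, and in all 6 those lay within 2-fold, for example 0.07 and 0.20 for Peli1, 0.11 for Fam53a and 0.17 for Wdr36. For Cnpy1 the other probes had log2 ratios of 1.74 and at least 2.16, the latter with a TDAG51-/-Tg2 spot not well above background, and for Mib1 -1.70 and -0.65, on the opposite side. Among probes at least 8-fold higher that had another probe for the gene, the median of the others was at least 2-fold higher for 8 of 20 (40.0%), and among those at least 8-fold lower it was at least 2-fold lower for 3 of 18 (16.7%). At 2-fold, these were 159 of 816 (19.5%) and 103 of 649 (15.9%).

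**Figure D4:**
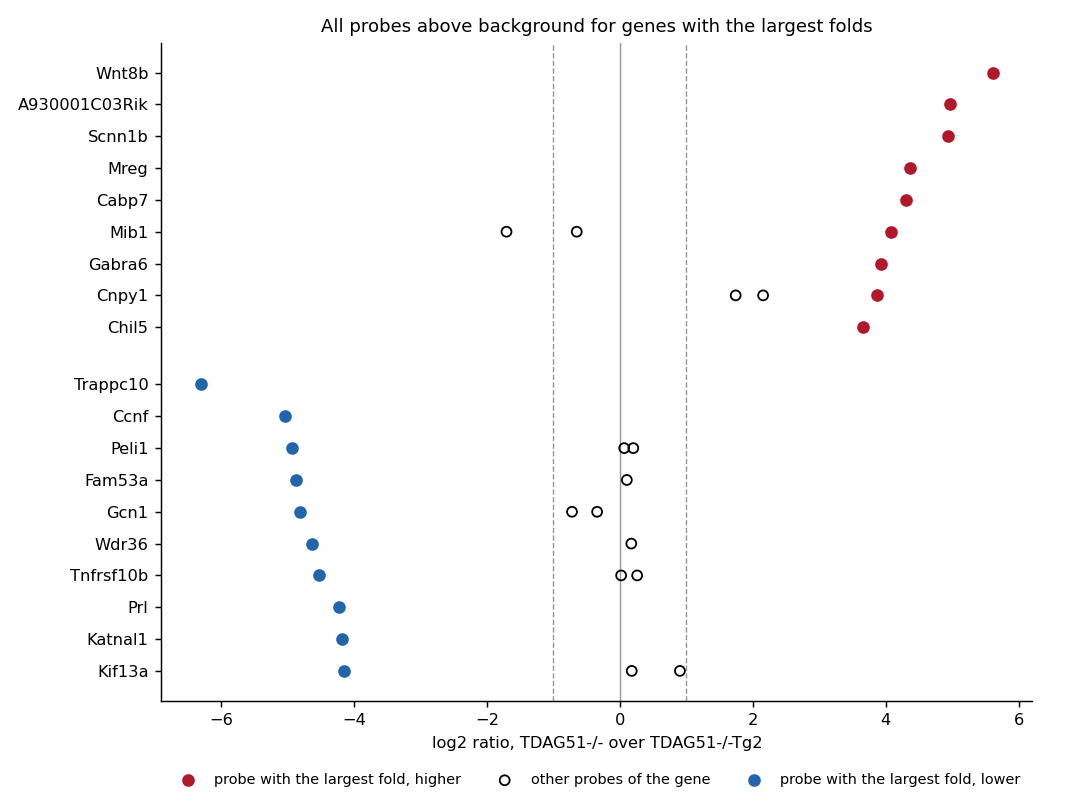
Log2 ratio of TDAG51-/- over TDAG51-/-Tg2 of the probe with the largest fold (filled) and of every other probe above background of the same gene (open), with the dashed lines at 2-fold. Open points of the lower genes all lie between -0.72 and 0.90.

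For 30 genes, at least 1 probe was at least 2-fold higher and another probe of the same gene at least 2-fold lower. Atp2a1, a calcium pump, had log2 ratios of -1.49 and 2.69, and Bcl11b, a transcription factor of cortical and striatal neurons, -1.78 and 1.63. Ptpdc1 had -1.03 and 2.39, Prag1 -2.53 and 1.64, and Wnt3 -1.04 and 1.68. Dscaml1, a cell adhesion molecule, had log2 ratios from -3.47 to at least 1.01 over 5 probes, the latter with a TDAG51-/-Tg2 spot not well above background. A single fold for such a gene depends on the probe chosen.

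Blood genes were higher in TDAG51-/- than in TDAG51-/-Tg2. Of 11 above background, 6 were at least 2-fold higher and none was at least 2-fold lower, with a median log2 ratio of 1.22. S100a8 (743 against 188, log2 ratio 2.10), S100a9 (3987 against 1592, log2 ratio 1.59) and Ltf, at least 3.97-fold higher, are genes of neutrophils, and S100a8 and S100a9 had 2.07 and 1.62 on the array with TDAG51+/+. The globin and red cell genes had opposite values on the arrays. The 6 probes of Hba-a1 and Hbb-bt, whose near-identical copies the probes may share, had log2 ratios of 0.83 to 1.72 here and -3.43 to -2.14 on the array with TDAG51+/+.

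Globin intensities differed between the arrays in the TDAG51-/- channel. They were 5.57 to 16.7 times higher here than on the other array over these 6 probes, and those of TDAG51-/-Tg2 were 0.32 to 0.93 times those of TDAG51+/+, which was saturated at 2 of the probes. The brighter Hba-a1 probe had 35470 in TDAG51-/- here and 2259 there. Alas2, the red cell enzyme of haem synthesis, had 1966 and 2033 in TDAG51-/- on the 2 arrays, and Slc4a1, the red cell anion exchanger, 463 and 485, so that these were close in the TDAG51-/- channel. Alas2 had 946 in TDAG51-/-Tg2 and 6630 in TDAG51+/+. Over the 32931 probes well above background in the TDAG51-/- channel of both arrays, the median absolute log2 difference was 0.10. Of these, 93 probes were past 2-fold, 42 higher here and 51 lower. Phlda1, with 44.1 in TDAG51-/- here and 350 there, is not among the 32931, since it was not well above background here. The part of blood left in the tissue was not tested.

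**Figure D5:**
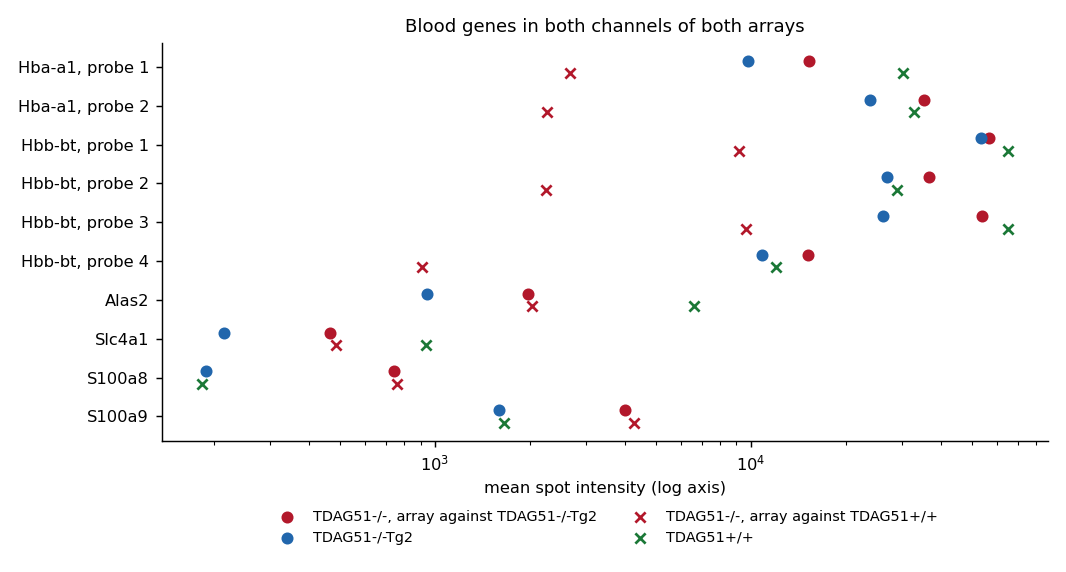
Mean spot intensity, on a log axis, of blood genes in both channels of this array (filled points) and of the array with TDAG51+/+ (crosses). Globin probes in TDAG51-/- are 5.57 to 16.7 times brighter on this array than on the other, while Alas2, Slc4a1, S100a8 and S100a9 in TDAG51-/- are close to equal.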

How the data were processed

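Whole brain RNA was extracted with TRIzol and hybridized to 2-colour Agilent whole mouse genome arrays. The authors deposited the scanner's mean intensity and median local background intensity of each spot in each channel, a log10 ratio (Cy5 divided by Cy3) that the software had dye-normalized, and a p-value of the software's error model for the spot, which was not used here. The authors also deposited a log2 ratio whose scale and direction (Cy3 over Cy5) were found from the scanner's ratio, and whose filter is not given in the sources used here. Probe positions are those of the scanner output on mm7.

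Of 45018 spots, 43379 were not controls, and 300 of these were left out as outliers. Intensities were corrected with normexp (offset 50) and normalized by loess in limma 3.58.1 (R 4.3.3, data.table version 1.17.8), and spots of a probe were averaged. Python 3.11.15 with numpy 2.4.6, pandas 2.3.3 and matplotlib 3.10.9 served for the rest. The median probe had an intensity of 335 in Cy3 over a median background of 42.5, and 383 in Cy5 over 39.0, and 62 and 510 probes were saturated. A fold is a lower bound for 2420 probes, with the dimmer channel near background or the brighter one saturated, and 1230 probes have no fold, among them 56 saturated in both channels. Precision is limited by the number of arrays.

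Genes were named from the scanner output through a gene list of RefSeq, without its coordinates. A name was found for 32737 of 41174 probes, through the accession for 23082, the symbol for 6582 and a synonym for 3073, and 8437 had none. Genes were represented by their brightest probe. The named genes are Phlda1 and Actb, those with the 10 largest folds in each direction, up to 6 leading members of each of 44 lists, members needed to show values within 2-fold, genes with probes past 2-fold in opposite directions, and genes opposite on the 2 arrays. Some genes that this rule names are not reported here. The comparison and the lists were chosen with earlier results of these data known, and 18 families after the values had been seen. Of the genes, 33 are on more than 1 list. The alternatives were other background corrections, scalings, filters and choices of probe.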

Additional observations from a re-analysis of the deposited data

Results flagged for a closer look

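For 24 named probes, the ratio was at least 2-fold on 1 side of 1 in the comparison with TDAG51-/-Tg2 and at least 2-fold on the other side in the comparison with TDAG51+/+. With unnamed probes there were 28, where 33802 probes were above background in the comparison with TDAG51-/-Tg2. These are single samples, and the difference between the comparisons was not tested. Log2 ratios of TDAG51-/- over TDAG51-/-Tg2 stand first and those over TDAG51+/+ second.

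Lower than TDAG51-/-Tg2 and higher than TDAG51+/+ were Tacc1 (-2.62 and 1.99), Clasp1 (-2.53 and 1.40), Stx3 (-2.51 and 1.00), Atp8b2 (-2.37 and 1.37), Sema6c (-2.0 and 1.65) and Zfp7 (-1.99 and 1.20). So were Obsl1 (-1.88 and 1.14), Smarcal1 (-1.81 and 2.18), Gorasp2 (-1.71 and 1.94), 4930415O20Rik (-1.47 and 1.31), Vil1 (-1.43 and 1.95) and Ndst4 (-1.13 and 1.54). Tacc1, a centrosomal protein gene, had 1764 in TDAG51-/- against 13884 in TDAG51-/-Tg2, and 1979 against 564 in TDAG51+/+, so that the TDAG51-/- values were close and the Cy5 samples far apart.

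Higher than TDAG51-/-Tg2 and lower than TDAG51+/+ were 6 red cell probes, namely Hbb-bt (1.01 and -3.43, 1.10 and -3.26, and 1.72 and -2.14, the last a bound since the TDAG51+/+ spot was saturated), Hba-a1 (1.16 and -3.05, and 1.22 and -3.42) and Alas2 (1.27 and -1.41). The others were Fmo2 (1.04 and -1.16), Nln (1.17 and -3.44, the first to be read as at least 2.22-fold higher since the TDAG51-/-Tg2 spot was near background), Ppp1r27 (1.18 and -1.19), Iars2 (1.25 and -2.28), Slc25a26 (1.29 and -1.04) and Zfp651 (1.67 and -1.71).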

How the results depend on the processing

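The counts at 2-fold depended on the background correction and scaling, with 1599 probes higher and 1303 lower as reported. They were 2959 and 2248 with offset 0, 3288 and 2449 with plain background subtraction, 935 and 2943 with no normalization, 3793 and 2753 with the scanner's own ratio and 3563 and 2906 with the deposited ratio. They were 1459 and 1791 with median centring, 1393 and 1226 with probes above background in both channels, 1599 and 1303 with no filter, and 1596 and 1293 without saturated probes. The probes opposite on the 2 arrays were 28 as reported, 134 with offset 0, 188 with plain subtraction, 298 with the scanner's ratio and 272 with the deposited ratio. All 214 named probes past 2-fold kept their direction under the 6 other corrections and scalings, and 192 to 214 stayed past 2-fold. Most of these probes were named for their large ratios, and the alternatives rescale the same spots. A kept direction was therefore largely fixed in advance and says nothing about other animals. Of 440 values of the 44 list medians under the alternatives, 275 moved by less than the spread between spots and none past 2-fold reversed. The medians of granule cell, Purkinje cell, brainstem, monoamine, dopamine, striatal, cortical, interneuron, olfactory, hypothalamic and blood genes kept their sign under every alternative. The median of all genes was -0.31 without normalization and -0.12 with median centring, and relative to that shift the Hox, choroid plexus, myelin, astrocyte and endothelial medians stayed above 0. Ratios of probes near background are limited by the offset. No paired analysis was possible because each comparison is 1 array.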
